A study of Mus musculus with 40 samples.

Results

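Described here are 6 transcripts of the mouse colonic mucosa whose mean level was higher in mice carrying a single Escherichia coli strain than in conventional mice. They are 6 of the 224 TaqMan assays of a custom real-time PCR card: Mm00472200_m1, Mm04209483_m1, Mm00520372_m1, Mm00661938_m1, Mm00471115_m1 and Mm00477788_m1. They were chosen by name, with earlier results of these data known, because their relative expression was higher in both mono-associated groups than in conventional mucosa. That difference is therefore a description here and was not tested. The files identify assays by catalogue ID and do not pair the IDs with genes, so no gene name, function, sequence or pathway list is given for them.

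The 40 samples were total RNA of colonic mucosa, 10 in each of 4 groups. Germ-free mice, the control of the series, carry no microbes. Mono-associated mice were colonised for 21 days with E. coli CEC or with E. coli Nissle, and conventional mice (labelled CV) carry a microbiota whose time of colonisation the labels do not give, so kind and length of colonisation cannot be told apart. The labels name no strain, age or further treatment of the mice. The series' design text speaks of RNA pooled in equal amounts from the mice, so a sample may not be 1 mouse, and the tests here weigh differences against a spread between samples that may be technical alone.

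Colonic mucosa holds resident immune cells beside an epithelium with mucus-secreting goblet cells and absorptive cells. Its transcription is known to respond to the microbes that live on it. Mono-association, in which a germ-free animal receives a single known strain, is used to separate the effect of that strain from that of a whole community. Nissle is an E. coli strain used as a probiotic. A TaqMan assay is a primer pair with a fluorescent probe for 1 transcript, and the suffix m1 marks a probe laid across an exon junction, which keeps it from reading genomic DNA.

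The readout was the threshold cycle (Ct), the PCR cycle at which the signal of a well crosses a threshold, so that a lower Ct means more template. Log2 relative expression was the Ct of the assay subtracted from the median Ct of its sample, taken over the 203 assays with no undetermined well, and 1 unit stands for a doubling of transcript relative to the typical assay. A change shared by most of the panel is removed with the median. The sample median ran from 21.57 to 24.27 cycles and was highest in CEC replicates 8 and 6, at 24.27 and 23.79. No member had an undetermined well. Of their 240 values, 4 equalled the mean of their group's other values and were read as filled in before deposit. They were Mm00520372_m1 and Mm00477788_m1 in CEC replicate 6 and Mm00472200_m1 and Mm00661938_m1 in Nissle replicate 2, and they were left missing. No pair of samples was identical. The closest were germ-free replicates 22 and 31, which differed by a median absolute 0.22 log2 units, and Nissle replicates 4 and 5, by 0.23, against 0.55 for the median pair.

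The group means of each of the 6 transcripts stood in the order conventional, germ-free, Nissle, CEC from low to high, as the plot of all samples shows. This order depends on the normalizer at germ-free and between the strains, and most of its steps did not pass a test. In bulk mucosa fewer cells of a type and less RNA per cell cannot be told apart, so a lower level may be either. Because the choice of the members fixed the conventional mean below both strains, only the place of germ-free in that order and the order of the strains are new. Levels of different assays are not compared, since each has its own efficiency.

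**Figure D1:**
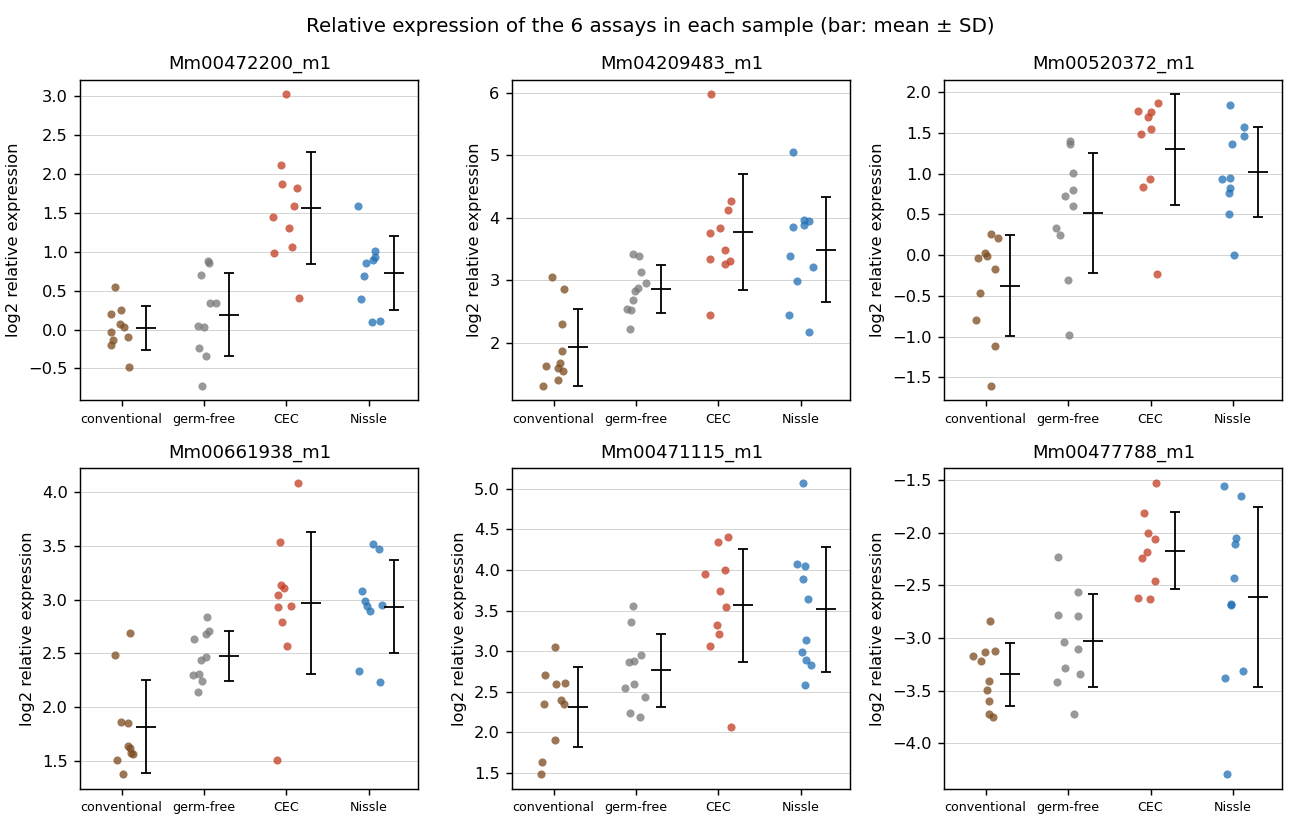
Log2 relative expression (y axis) of each of the 6 assays by group (x axis), with 1 point per measured sample and the group mean ± SD beside the points. Conventional samples lie lowest in each panel by their mean and the CEC samples highest, while single samples such as CEC replicate 6 for Mm04209483_m1 (5.98) and Nissle replicate 4 for Mm00477788_m1 (-4.29) lie far from their group.

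Mm04209483_m1 had the largest difference from conventional mucosa. Its lowest, median and highest log2 relative expression were 1.32, 1.65 and 3.05 in the 10 conventional samples and 2.22, 2.86 and 3.42 in the 10 germ-free samples. In CEC they were 2.45, 3.62 and 5.98, and in Nissle 2.17, 3.62 and 5.04. Conventional replicates 5, 7 and 10 reached into the range of the strains, and 16 of the 20 mono-associated samples lay above the highest conventional one. The CEC mean of 3.78 ± 0.93 (SD, n = 10) was 3.61-fold above the conventional mean of 1.93 ± 0.61, or 1.85 ± 0.32 (SE) log2 units. The Nissle mean of 3.49 ± 0.84 was 2.95-fold above it, or 1.56 ± 0.32 (SE) log2 units.

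Mm00520372_m1 had the next largest difference. In conventional samples its log2 relative expression ran from -1.60 over a median of -0.11 to 0.26, and in germ-free samples from -0.98 over 0.66 to 1.40. In the 9 measured CEC samples it ran from -0.23 over 1.55 to 1.87, and in Nissle from 0 over 0.94 to 1.84. All CEC samples but the lowest, replicate 9, lay above every conventional sample, and 17 of 19 mono-associated samples did so. The mean was -0.37 ± 0.62 in conventional samples, 1.30 ± 0.68 (SD, n = 9) after CEC and 1.02 ± 0.55 after Nissle. This made it 3.19-fold higher after CEC (log2 difference 1.67, standard error 0.29) and 2.63-fold higher after Nissle (1.39, standard error 0.29).

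Mm00472200_m1 separated the strains most. Its log2 relative expression ran from -0.48 over a median of -0.0046 to 0.55 in conventional samples and from -0.72 over 0.19 to 0.88 in germ-free samples. In CEC it ran from 0.41 over 1.52 to 3.02, and in the 9 measured Nissle samples from 0.099 over 0.85 to 1.59. All but 1 CEC sample, replicate 10, stood above every conventional and every germ-free sample, whereas 6 of 9 Nissle samples stood above every conventional sample. The means were 0.015 ± 0.28 in conventional samples, 1.56 ± 0.71 after CEC and 0.73 ± 0.47 (SD, n = 9) after Nissle. The differences from conventional were 1.55 (standard error 0.24, 2.92-fold) for CEC and 0.71 (standard error 0.24, 1.64-fold) for Nissle.

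Mm00661938_m1 differed from conventional mucosa almost equally after both strains. Its log2 relative expression ran from 1.38 over a median of 1.63 to 2.69 in conventional, from 2.14 over 2.45 to 2.84 in germ-free, from 1.51 over 2.99 to 4.09 in CEC and from 2.23 over 2.95 to 3.52 in 9 Nissle samples. Conventional replicates 5 and 7 were the 2 high conventional samples, as they were for Mm04209483_m1, and CEC replicate 8 was the only mono-associated sample below the germ-free range. The mean was 1.82 ± 0.44 in conventional samples, 2.97 ± 0.66 after CEC and 2.93 ± 0.43 (SD, n = 9) after Nissle. The log2 difference was 1.15 (standard error 0.21, 2.21-fold) for CEC and 1.12 (standard error 0.22, 2.17-fold) for Nissle.

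Mm00471115_m1 was likewise similar after both strains. It ran from 1.48 over a median of 2.38 to 3.05 in conventional samples and from 2.18 over 2.73 to 3.55 in germ-free samples. In CEC it ran from 2.06 over 3.64 to 4.41 and in Nissle from 2.58 over 3.39 to 5.07 log2 units. CEC replicate 8 was again the low CEC sample, and 15 of 20 mono-associated samples lay above the highest conventional one. The mean was 2.31 ± 0.49 in conventional samples, 3.56 ± 0.70 after CEC and 3.52 ± 0.77 after Nissle (SD, n = 10 each). The log2 difference was 1.26 (2.39-fold) for CEC and 1.21 (2.31-fold) for Nissle, each with a standard error of 0.27.

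Mm00477788_m1 had the highest Ct of the 6, between 23.97 and 26.36, and was the only one whose CEC and conventional ranges were separate. Its log2 relative expression ran from -3.75 over a median of -3.31 to -2.84 in conventional, from -3.72 over -3.07 to -2.23 in germ-free, from -2.62 over -2.18 to -1.52 in 9 CEC and from -4.29 over -2.55 to -1.55 in Nissle samples. Nissle samples spread widest, with replicates 4, 5 and 6 inside or below the conventional range and the other 7 above it. The mean was -3.35 ± 0.30 in conventional samples, -2.17 ± 0.37 (SD, n = 9) after CEC and -2.61 ± 0.86 after Nissle. The log2 difference was 1.18 (standard error 0.25, 2.26-fold) for CEC and 0.73 (standard error 0.24, 1.66-fold) for Nissle. Of all 214 assays, 3 (1.4%) had every CEC sample above every conventional sample, a share from which nothing is read because this contrast chose the members.

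The members were not the only assays of this kind. Over the panel, 22 of 214 assays had both strains above conventional by at least 0.71 log2 units, the smallest of the 2 differences among the members, and the median of that smaller difference over all 214 was 0.045. Both means lay above the conventional mean in 115 of 213 assays (54%). Both strains were past the test's threshold and higher than conventional in 10.3% of 214 assays, CEC in 18.2%, and Nissle in 18.1% of 215, shares that are read here as a description. The median difference over all assays was 0.21 for CEC and 0.17 for Nissle, below every member's.

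Germ-free mucosa was compared with the others to place the level without microbes between the level with a conventional microbiota and that with a single strain. The germ-free samples played no part in choosing the members, but the samples they are compared with did, which favours a place in between. Measured from the conventional mean to the mean of the 2 strains, germ-free lay 58.2% of the way for Mm00520372_m1, 58.1% for Mm00661938_m1 and 54.6% for Mm04209483_m1. It lay 36.7% of the way for Mm00471115_m1, 33.5% for Mm00477788_m1 and 15.3% for Mm00472200_m1. Leaving out any 1 sample kept these shares between 50.99% and 69.1% for the first 3 and between 8.53% and 41.9% for the other 3. Over the panel, the means stood in the upward order of conventional, germ-free and both strains in 43 of 213 assays (20.2%), which is 37.4% of the 115 assays with both strains above conventional. With the sample mean as the normalizer the shares ran from 10.6% to 57.3% and germ-free stayed in between for all 6. With the mean of the 10 assays whose ratios varied least over the samples (the 10 most stable assays) germ-free Mm00472200_m1 lay below the conventional mean, and with no normalization those of Mm00472200_m1, Mm00471115_m1 and Mm00477788_m1 did.

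**Figure D2:**
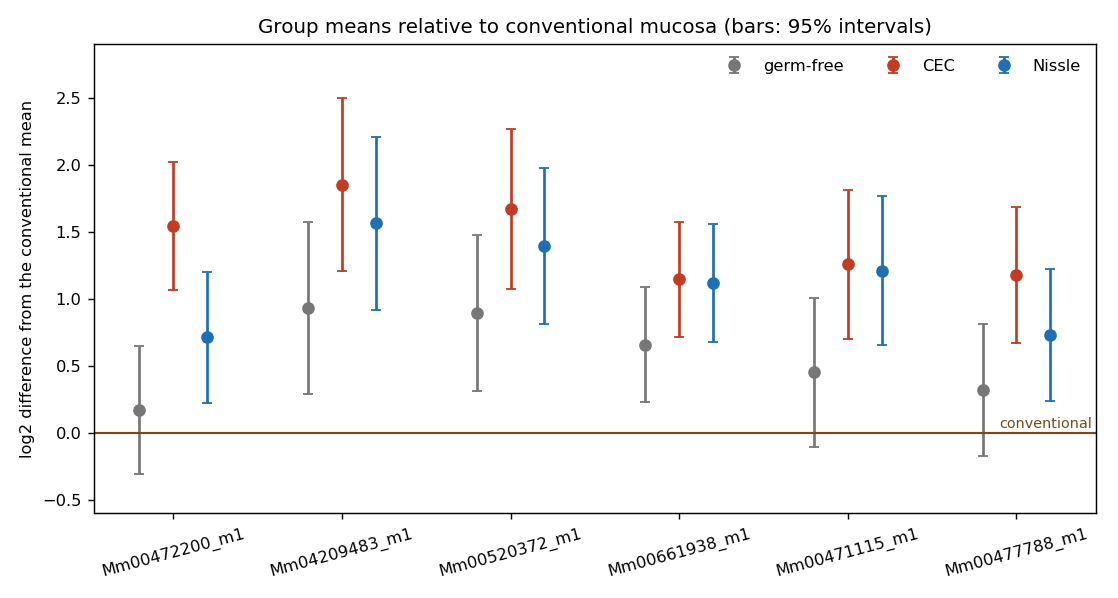
Difference of the germ-free, CEC and Nissle means from the conventional mean (y axis, log2 units, conventional at 0) for each assay (x axis), with 95% intervals from the fit of all 4 groups. The germ-free intervals lie above 0 for Mm04209483_m1, Mm00520372_m1 and Mm00661938_m1 and include 0 for the other 3, while the CEC and Nissle points, which chose the assays, are shown as a description.

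Germ-free mucosa exceeded conventional mucosa in 3 of the 6 assays, beside 11.2% of 214 tested assays higher in germ-free and 17.8% called in either direction. The members were chosen for low levels in these conventional samples, which favours a higher germ-free mean, so the count is not read as an excess over the shares. Groups were compared with limma in 1 fit of all assays and groups, two-sided, with Benjamini-Hochberg adjustment over all tested assays and a threshold of 0.05. Mm00520372_m1 was 1.86-fold higher in germ-free samples, at 0.52 ± 0.74 (SD, n = 10), which is 0.89 ± 0.29 (SE) on the log2 scale (limma, adjusted p = 0.0307). Mm00661938_m1 was 1.58-fold higher, at 2.48 ± 0.23, or 0.66 ± 0.21 (SE) log2 units (adjusted p = 0.0307). Mm04209483_m1 was 1.91-fold higher, at 2.86 ± 0.38, or 0.93 ± 0.32 (SE) log2 units (adjusted p = 0.0383). All 10 germ-free samples lay above the conventional mean for Mm00661938_m1 and Mm04209483_m1, and 9 of 10 did for Mm00520372_m1, though the ranges overlapped in all 3.

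Germ-free had the higher mean in all 6 members, which their choice favours, and in 63.1% of all assays. For the other 3 assays the germ-free mean lay above the conventional mean by less than the test could call. The difference was 0.45 for Mm00471115_m1 (95% interval -0.10 to 1.01, limma adjusted p = 0.293), with germ-free at 2.76 ± 0.45 (SD, n = 10). It was 0.32 for Mm00477788_m1 (-0.17 to 0.81, adjusted p = 0.414), with germ-free at -3.03 ± 0.44. It was 0.17 for Mm00472200_m1 (-0.30 to 0.65, adjusted p = 0.645), with germ-free at 0.19 ± 0.53. The median difference over all 214 assays was 0.18.

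The 3 calls of germ-free against conventional were close to the threshold. No member passed without any 1 of germ-free replicates 11 and 20 and conventional replicates 1, 9 and 10, and only 1 passed without germ-free replicate 22 or 31 or conventional replicate 2 or 3. The adjusted p ran from 0.0077 to 0.0698 for Mm00520372_m1, from 0.014 to 0.0653 for Mm00661938_m1 and from 0.0162 to 0.0709 for Mm04209483_m1 as each sample was left out. Normalized to the 10 most stable assays, these differences were 0.62, 0.38 and 0.66 in that order (limma, adjusted p = 0.337, 0.283 and 0.0806), and without normalization 0.38, 0.15 and 0.42 (0.578, 0.828 and 0.525).

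After CEC, transcripts of 2 of the 6 assays exceeded germ-free mucosa, beside 4.69% of 213 tested assays higher and 8.45% called in either direction. The members were chosen for high levels in these CEC samples, which favours a higher CEC mean. The shares are over all assays, chosen or not, so the count is not read as an excess over them. Mm00472200_m1 was 2.59-fold higher in CEC than in germ-free samples, or 1.37 ± 0.24 (SE) log2 units (limma, adjusted p = 6.61e-05). It was above the germ-free mean in 10 of 10 CEC samples, and its adjusted p lay between 2.9e-07 and 0.0184 over its alternatives. Mm00477788_m1 was 1.81-fold higher, or 0.86 ± 0.25 (SE) log2 units (adjusted p = 0.0234), in 9 of 9 measured CEC samples. It did not pass without normalization (0.72, adjusted p = 0.152).

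CEC had the higher mean in all 6, which the choice of the members favours, and in 54% of all assays. The other 4 members had CEC means that missed the threshold, although each had an unadjusted p under 0.05, as did 22.1% of all assays. The log2 difference was 0.80 for Mm00471115_m1 (limma, adjusted p = 0.0574), 0.92 for Mm04209483_m1 (0.0597), 0.78 for Mm00520372_m1 (0.0781) and 0.49 for Mm00661938_m1 (0.142). CEC replicate 8, the sample with the highest median Ct, was the lowest CEC sample in 3 of these 4 assays. Without it 5 of the 6 members passed, adding Mm00471115_m1 (0.97, adjusted p = 0.0116), Mm00661938_m1 (0.65, 0.0203) and Mm04209483_m1 (1.07, 0.0226). Mm00520372_m1 passed without CEC replicate 9 (0.97, 0.0167). Leaving out Nissle replicate 4 or 8, which enter through the shared estimate of spread, gave 4. With sample quality weights all 6 passed (adjusted p at most 0.00566). With the 4 filled-in values used as deposited 5 passed, and with the 10 stable assays 4 did.

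After Nissle, all 6 means lay above germ-free, as did 52.6% of all assays, and none passed (limma, adjusted p from 0.0801 to 0.316), beside 4.19% of 215 assays called higher and 6.51% called in either direction. An unadjusted p under 0.05 was found for 3 of the 6 and for 20.9% of all assays. The difference was 0.76 for Mm00471115_m1 (95% interval 0.20 to 1.31), 0.63 for Mm04209483_m1 (-0.012 to 1.27) and 0.54 for Mm00472200_m1 (0.050 to 1.03). It was 0.50 for Mm00520372_m1 (-0.079 to 1.08), 0.46 for Mm00661938_m1 (0.018 to 0.90) and 0.41 for Mm00477788_m1 (-0.078 to 0.90). Mm00471115_m1 passed with sample quality weights (adjusted p = 0.0124), without CEC replicate 8 (0.0495) and without Nissle replicate 4 (0.0395). With Nissle replicates 4 and 5 both left out, it and Mm00477788_m1 passed (0.0209 and 0.0211). The choice of the members favours a higher Nissle mean here too. The comparisons against germ-free share the germ-free samples.

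Whether germ-free lay nearer to conventional or to the strains was tested against the midpoint, the mean of the conventional mean and the average of the strains. The conventional and mono-associated samples that chose the members enter it too. None of the 6 differed from the midpoint (limma, adjusted p from 0.277 to 0.922; none had an unadjusted p under 0.05, as 17.4% of 213 assays did, and 6.57% of assays passed). The difference farthest from 0 was that of Mm00472200_m1, at -0.39 with a 95% interval of -0.79 to 0.0049, on the conventional side. It was -0.16 (-0.62 to 0.30) for Mm00471115_m1 and -0.16 (-0.57 to 0.25) for Mm00477788_m1. It was 0.079 (-0.45 to 0.61) for Mm04209483_m1, 0.13 (-0.36 to 0.61) for Mm00520372_m1 and 0.091 (-0.27 to 0.45) for Mm00661938_m1.

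The strains were compared because the choice asked only that both be high. Mm00472200_m1 was 1.78-fold higher after CEC than after Nissle, or 0.83 ± 0.24 (SE) log2 units (limma, adjusted p = 0.0441), and 9 of 10 CEC samples lay above the Nissle mean. It was 1 of 7 assays called among 214 (3.27%), and 0.935% of the 214 were called higher after CEC. This call held without any 1 of Nissle replicates 1 and 2, CEC replicates 9 and 10, germ-free replicates 10, 12, 20, 32 and 33, or conventional replicates 6, 9 and 10, and was lost without any 1 of the other 28 samples (adjusted p from 0.00917 to 0.102 over all 40). Fitting only CEC and Nissle samples lost it as well (0.2), as did the sample mean as the normalizer (0.054) and no normalization (0.46 log2 units, 0.324), while sample quality weights kept it (0.00955).

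The CEC mean was higher in all 6 members and in 50.9% of all assays. For the remaining 5 members it exceeded that of Nissle by amounts the test did not call. The difference was 0.44 for Mm00477788_m1 (95% interval -0.060 to 0.95, limma adjusted p = 0.314), 0.29 for Mm04209483_m1 (-0.36 to 0.93, 0.654) and 0.28 for Mm00520372_m1 (-0.32 to 0.87, 0.64). It was 0.049 for Mm00471115_m1 (-0.51 to 0.60) and 0.031 for Mm00661938_m1 (-0.41 to 0.47), each with an adjusted p of 0.965. The intervals leave room for differences of up to 0.95 log2 units, so likeness of the strains was not shown. Without normalization the order of the strains turned in 4 of these 5, Mm00477788_m1 being the exception, and with the sample mean it turned in Mm00661938_m1 and Mm00471115_m1.

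The size of the differences from conventional mucosa depended on the normalizer, while their direction was the same under each normalizer tried. With the 10 most stable assays the CEC differences fell to between 0.87 (Mm00661938_m1) and 1.57 (Mm04209483_m1). The Nissle differences then lay between 0.21 with a standard error of 0.29 (Mm00472200_m1) and 1.12 (Mm04209483_m1). With no normalization the smallest were 0.38 ± 0.34 (SE) for Mm00661938_m1 after CEC and 0.33 ± 0.31 for Mm00472200_m1 after Nissle. All 12 differences stayed above 0 under each normalizer. The median difference of all assays moved from 0.21 to -0.075 for CEC and from 0.17 to -0.28 for Nissle with the 10 stable assays, and to -0.53 and -0.16 with none, below every member's each time.

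**Figure D3:**
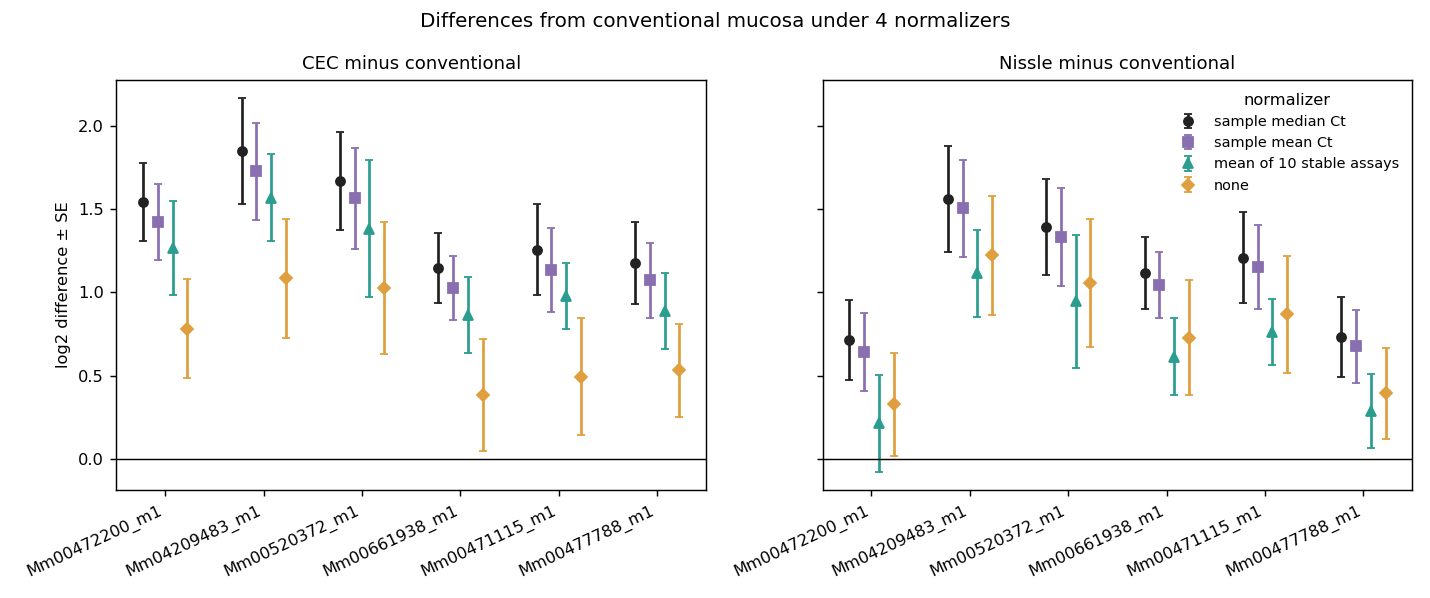
Log2 difference ± SE (y axis) of CEC (left) and Nissle (right) from conventional mucosa for each assay (x axis) under 4 normalizers, shown as marker shapes. Every point lies above 0, the points for the 10 stable assays and for no normalization lie lowest, and Mm00472200_m1 after Nissle comes closest to 0, at 0.21.

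Covariation was examined in the deviations of samples from their group mean, which do not hold the differences between groups that chose the members. Of the 15 pairs of members, 8 correlated over 38 to 40 samples at an adjusted p under 0.05 (two-sided permutation within groups, 100000 permutations, Benjamini-Hochberg over the 15 pairs). The members' median r was 0.41 and 13 of 15 pairs were positive, with 6 at 0.5 or above. Among all 11628 pairs of the 153 assays measured in every sample the median r was 0.060, 55.6% were positive and 13.4% were at 0.5 or above. The permutation test was not run on these pairs, so counts of passing member pairs are not read as an excess over the card. All assays of a sample share its median Ct and its template, and the part of either in these correlations was not tested.

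The strongest pairs held Mm04209483_m1. With Mm00471115_m1 its Pearson r was 0.80 and Spearman's rho 0.81 over 40 samples (permutation p = 1e-05 for both, the smallest the permutations can give, adjusted 7.5e-05 and 0.00015). The r was 0.77 without CEC replicate 6 and Nissle replicate 8, the samples farthest from the median of Mm04209483_m1. It was 0.92 in germ-free, 0.95 in Nissle, 0.72 in CEC and 0.63 in conventional samples (n = 10 each, no test within groups).

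With Mm00661938_m1 the r of Mm04209483_m1 was 0.79 and rho 0.63 (permutation p = 1e-05 and 6e-05, adjusted 7.5e-05 and 0.00045, 39 samples), and r was 0.73 without the same 2 samples. Its r was positive in each group, from 0.51 in germ-free to 0.85 in conventional samples. With Mm00477788_m1 the r was 0.58 and rho 0.53 (permutation p = 0.00082 and 0.00101, adjusted 0.00276 and 0.00379), and r was 0.39 without Nissle replicates 8 and 4. The r of Mm00471115_m1 with Mm00477788_m1 was 0.57 and rho 0.60 (permutation p = 0.00078 and 0.00028, adjusted 0.00276 and 0.0014), and 0.69 without CEC replicate 8 and Nissle replicate 8. Mm00661938_m1 and Mm00471115_m1 had an r of 0.56 and a rho of 0.44 (permutation p = 0.00092 and 0.00796, adjusted 0.00276 and 0.0239), with r at 0.38 without CEC replicates 8 and 6. Among these 4 assays 1 pair did not pass, Mm00661938_m1 with Mm00477788_m1 (r 0.22, permutation p = 0.203, adjusted 0.254), and it passed without CEC replicate 8 (r 0.42, adjusted p = 0.0344).

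Mm00472200_m1 followed the 4 less closely. Its r was 0.50 with Mm04209483_m1, 0.43 with Mm00661938_m1 and 0.41 with Mm00477788_m1 (permutation, adjusted p = 0.0109, 0.0344 and 0.0335), and rho was 0.42, 0.29 and 0.38 (adjusted p = 0.0283, 0.124 and 0.0526). Without the 2 samples farthest from its median r was 0.38, 0.26 and 0.46. The first pair and the second did not pass without CEC replicate 6, at r 0.32 (permutation, adjusted p = 0.109) and 0.28 (0.162), and 6 of the 15 pairs passed then. The second and the third did not pass with the sample mean as the normalizer (r 0.37 and 0.34, permutation, adjusted p = 0.0939 and 0.0869). Nor did they pass without Nissle replicates 4 and 5 together (r 0.38 and 0.31, permutation, adjusted p = 0.12 and 0.167). Without CEC replicates 6 and 8 together 5 pairs passed. With Mm00471115_m1 the r of Mm00472200_m1 was 0.29 (permutation p = 0.106, adjusted 0.159).

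Mm00520372_m1 varied apart from 3 of the other 5 members under the median normalizer. Its r was 0.017 with Mm04209483_m1, -0.068 with Mm00471115_m1 and -0.045 with Mm00477788_m1 (permutation, adjusted p from 0.788 to 0.917). It was 0.31 with Mm00661938_m1 (adjusted p = 0.109, rho 0.41 with adjusted p = 0.0283) and 0.25 with Mm00472200_m1 (adjusted p = 0.218). Nissle replicate 8 shows this: its Mm04209483_m1 and Mm00471115_m1 were the highest Nissle values, 5.04 and 5.07, and its Mm00520372_m1 was the lowest, at 0. With the 10 stable assays as the normalizer Mm00520372_m1 covaried with 3 of the other 5, with r at 0.72 with Mm00661938_m1, 0.64 with Mm00472200_m1 (permutation, adjusted p = 0.00015 and 0.000262) and 0.38 with Mm00477788_m1 (0.0467). Its r of 0.30 with Mm04209483_m1 and of 0.22 with Mm00471115_m1 did not pass there (permutation, adjusted p = 0.08 and 0.208). Correlations were higher over the whole card under that normalizer. All 11628 pairs had a median r of 0.145 there, against 0.060 with the sample median. Of them, 69.8% were positive and 15.8% were at 0.5 or above, and 10 of the 15 member pairs passed.

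**Figure D4:**
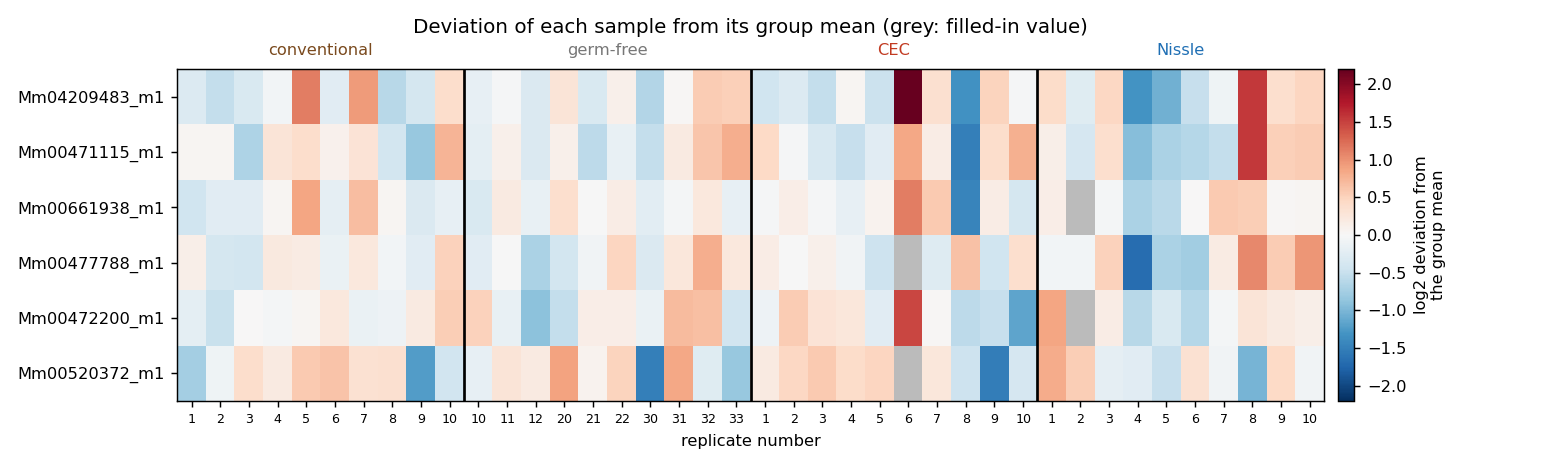
Deviation of each sample (columns, by group and replicate number) from its group mean in log2 units (colour, red above and blue below) for the 6 assays (rows), with filled-in values in grey. CEC replicate 6 is above its group mean in all 4 measured assays, Nissle replicates 4 and 5 and germ-free replicate 30 are below in all 6, and the bottom row, Mm00520372_m1, is low in Nissle replicate 8, where Mm04209483_m1 and Mm00471115_m1 have their highest Nissle values.

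Single samples moved most of the members at once. CEC replicate 6 was above the CEC mean by 0.85 to 2.20 log2 units in all 4 assays measured there. Its median Ct was high, at 23.79. Its raw Ct was the lowest of the CEC samples for Mm04209483_m1 only, at 17.81. It was 20.76 for Mm00472200_m1 (CEC range 20.18 to 23.29), 19.70 for Mm00661938_m1 (18.77 to 22.76) and 19.38 for Mm00471115_m1 (17.82 to 22.21). Conventional replicate 5 and Nissle replicate 9 were above their group mean in all 6 assays, while germ-free replicate 30 and Nissle replicates 4 and 5 were below in all 6. The sample median Ct of Nissle replicates 4 and 5 was 21.94 and 22.20, within the Nissle range of 21.57 to 22.79. Nissle deviations went with this median, which is itself a term of relative expression. Replicates 1, 3, 8, 9 and 10, at 22.65 to 22.79, had mean deviations over the members of 0.21 to 0.66. Replicates 2, 4, 5, 6 and 7, at 21.57 to 22.20, had mean deviations of -0.92 to 0.0043. In CEC, replicates 8 and 6 had the highest medians, 24.27 and 23.79, and mean deviations of -0.78 and 1.41. In germ-free samples replicate 31, with the lowest median (21.78), had a mean deviation of 0.33. The part of template amount and of the normalizer in these shared deviations was not tested.

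In the CEC group Mm00477788_m1 moved against the assays it followed elsewhere. Its r with Mm04209483_m1 was -0.69 in 9 CEC samples but 0.65 in germ-free, 0.91 in Nissle and 0.65 in conventional samples. With Mm00661938_m1 it was -0.81 in CEC and 0.36, 0.73 and 0.40 in the others in that order, and with Mm00471115_m1 -0.37 against 0.60, 0.87 and 0.80. CEC replicate 8 was highest of the CEC samples for Mm00477788_m1 (-1.52) and lowest for the other 3. Without it the CEC values were -0.39, -0.66 and 0.33 in 8 samples. Without normalization they were positive, at 0.77, 0.75 and 0.87, in a setting where 90.8% of all assay pairs were positive over all samples, at a median r of 0.49. Differences between groups in r were not tested.

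**Figure D5:**
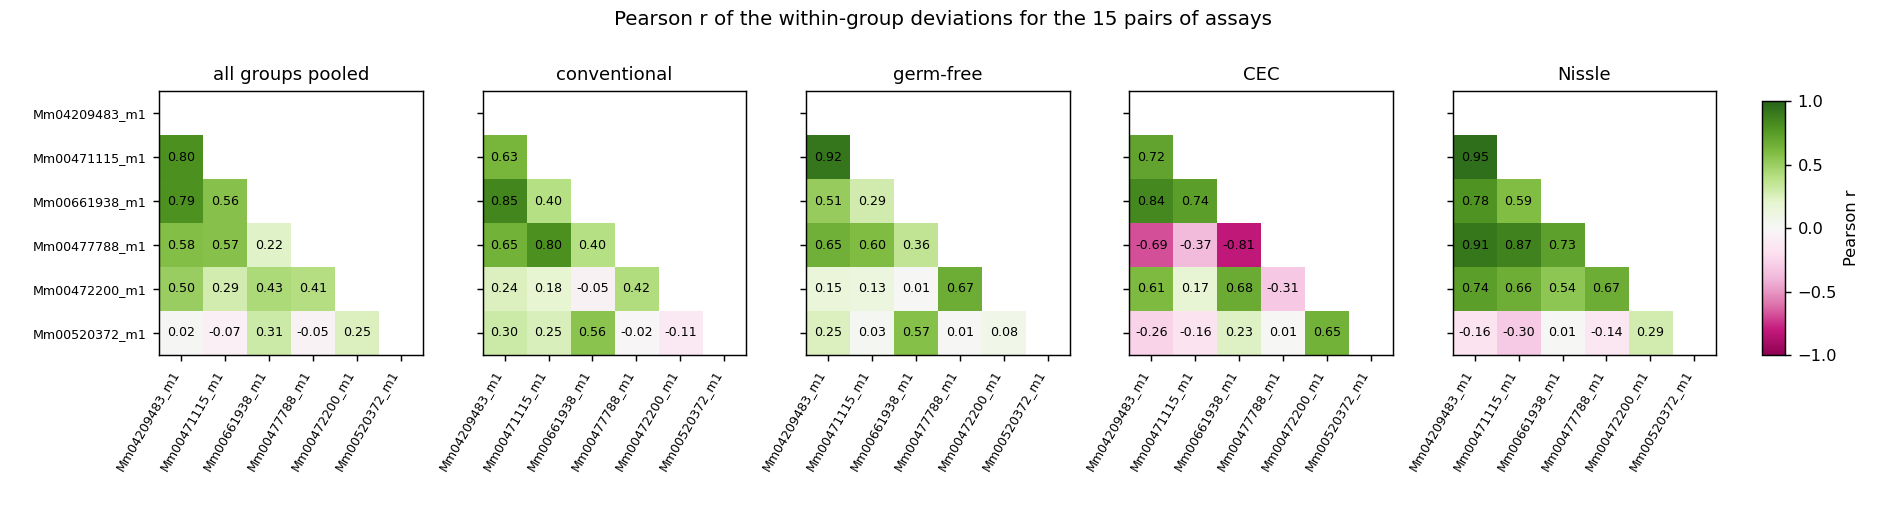
Pearson r of within-group deviations for the 15 pairs of assays (rows and columns, colour from -1 to 1, value in each cell), over all samples and in each group. The 3 pairs among Mm04209483_m1, Mm00471115_m1 and Mm00661938_m1 are positive in every panel, and those of Mm00477788_m1 with these 3 are positive except in CEC (-0.69, -0.37 and -0.81).

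The assays most like the members were sought among the 151 others measured in all 40 samples, whose median r with the members' mean deviation was 0.095. The closest was Mm00518185_m1, with an r of 0.70 over 40 samples that fell to 0.55 without CEC replicate 6, and the next was Mm01213937_m1, with 0.58 (0.57 without it). Mm00518185_m1 had means of 1.45 ± 0.63 in CEC, 1.24 ± 0.34 in conventional, 1.29 ± 0.51 in Nissle and 1.14 ± 0.34 in germ-free samples (SD, n = 10 each). Mm01213937_m1 had 3.41 ± 0.64, 3.08 ± 0.27, 3.77 ± 0.55 and 3.40 ± 0.35 in the same order. Both were picked for their likeness in these samples, so their r is a description.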

How the data were processed

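The deposited table holds raw Ct values from TaqMan cards for 224 assays in 40 samples, per the file headers, which call it a truncated example. The cycle threshold and the way missing wells were treated were not given in the sources used here. A Ct of 40 (405 wells) was read as undetermined. A further 156 values equalled the mean of their group's other measured values within 2e-06 cycles, or for 3 of them the mean of all but 1 of these. They were read as filled in and treated as missing in tests, though they enter the sample median as deposited. Log2 relative expression was the assay's Ct subtracted from the median Ct of its sample, taken over the 203 assays without a Ct of 40. It assumes a doubling per cycle, and no total count or depth exists for these data.

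Groups followed the labels. Assays with at least 5 of 10 values in both groups were fitted together over all 4 groups with limma 3.58.1 in R 4.3.3, with Benjamini-Hochberg adjustment over all tested assays. The script was tested on simulated data. Covariation used deviations from group means with 100000 permutations within groups (Python 3.11.15, figures with matplotlib 3.10.9). The members, comparisons and lists were chosen with earlier results of these data known. All 6 members were named, plus the 2 assays with the highest correlation with their mean deviation. Alternatives were other normalizers (among them the mean of the 10 most stable assays, found by the geNorm method of dropping the least stable assay in turn, with no member among them), filled-in values as deposited, other treatment of undetermined wells, filters, sample weights, a replicate block and leaving out samples. No card, date or batch is given in the labels used here, and the tissue could not be checked against markers.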

Additional observations from a re-analysis of the deposited data

Results flagged for a closer look

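In the CEC group of Mm04209483_m1, replicate 6 had a log2 relative expression of 5.98 and stood apart from the other 9 samples, the next of which was at 4.27. The gap was 0.485 of the group's range. In the CEC group of Mm00520372_m1, replicate 9 was at -0.23 and the next sample at 0.84, a gap of 0.509 of the range over 9 samples. Of 24 groups checked, these 2 stood apart, and chance alone marks about 1 in 20 groups. Mm00472200_m1 differed between the strains, by 0.83 log2 units higher in CEC than in Nissle (limma, adjusted p = 0.0441, 9 of 10 CEC samples above the Nissle mean).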

How the results depend on the processing

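Over 63 results for single assays or pairs and their 2575 alternative values, 2414 kept their direction and call, 78 lost a call, 33 gained one, 40 turned direction and 10 values without a test (differences from conventional and germ-free positions) moved by more than the replicate SD. For each result on a single assay, 40 of the alternatives only left out 1 sample. A call absent at first that stayed absent counts as kept, so the total is no measure of how firm the calls are. The number of members higher in germ-free than in conventional mucosa, 3 at first, was 0 with no normalization and with the 10 stable assays, and 0 to 3 as samples were left out. CEC against germ-free, 2 at first, gave 1 with no normalization or with assays measured in all samples, 4 with the 10 stable assays or without Nissle 4 and 5 together (chosen after seeing the data), 5 with filled-in values as deposited, 6 with sample quality weights and 2 to 5 as samples were left out. Nissle against germ-free, 0 at first, gave 1 with sample quality weights, 2 without Nissle 4 and 5 together and 0 to 1 as samples were left out. CEC against Nissle, 1 at first, gave 0 with no normalization, the mean Ct, the median of fully measured assays (chosen after seeing the data), assays measured in all samples, these 2 groups alone, and without Nissle 4 and 5 together, and 0 to 1 as samples were left out. Germ-free against the midpoint gave 0 throughout, and all 6 members stayed above conventional (2 with assays measured in all samples, since 4 members had a filled-in value). The count of covarying pairs, 8 at first, was 15 with no normalization. There all 11628 pairs of the card had a median r of 0.49, and 48.8% were at 0.5 or above. The count was 10 with the 10 stable assays, 5 without CEC 6 and 8 together and 6 to 9 without 1 of them. With the mean Ct, and without Nissle 4 and 5 together, fewer than 8 pairs passed. The cause of these changes was not tested.

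Directions turned with the normalizer, with the samples left out and with filled-in values. Germ-free minus conventional became -0.34 (Mm00472200_m1), -0.055 (Mm00471115_m1) and -0.19 (Mm00477788_m1) with no normalization, and -0.10 (Mm00472200_m1) with the 10 stable assays. Germ-free minus midpoint became -0.15 (Mm04209483_m1), -0.14 (Mm00520372_m1) and -0.13 (Mm00661938_m1) with no normalization, and -0.015 (Mm04209483_m1) with the 10 stable assays. CEC minus Nissle became -0.14 (Mm04209483_m1), -0.029 (Mm00520372_m1), -0.35 (Mm00661938_m1) and -0.38 (Mm00471115_m1) with no normalization. For Mm00661938_m1 and Mm00471115_m1 it was -0.020 and -0.016 with the mean Ct and -0.038 and -0.019 with the median of fully measured assays, and ran from -0.093 to 0.19 and from -0.055 to 0.22 as samples were left out. Without Nissle 4 and 5 together it was -0.0084 for Mm04209483_m1 and -0.15 for both Mm00661938_m1 and Mm00471115_m1. The r of Mm00520372_m1 with Mm00471115_m1 became 0.39, 0.22 and 0.0043 with no normalization, the 10 stable assays and filled-in values, and with Mm00477788_m1 0.35, 0.38 and 0.052. Its r with Mm04209483_m1 became -0.024 with the mean Ct, -0.073 without Nissle 4 and 5 together and -0.025 without CEC 8, alone or with CEC 6 (0.017 without CEC 6). That of Mm00661938_m1 with Mm00477788_m1 became -0.054 without Nissle 4 and 5 together.

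Replicate numbers were shared by CEC, Nissle and conventional samples, and nothing in the labels says that they pair them. Deviations of same-numbered CEC and Nissle samples correlated at a median r of -0.059, with 1 of 10 over 0.1 and 1 of 10 best matched to its own number. For CEC and conventional samples it was higher, at a median r of 0.20, with 7 of 10 over 0.1 and 4 of 10 best matched. For Nissle and conventional samples the median r was -0.031, with 3 and 1. Whether the numbers pair samples was not tested. With the replicate block the difference of Mm00472200_m1 between CEC and Nissle was 0.83 (limma, adjusted p = 0.149), so 0 members passed.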
